A study of Mus musculus with 8 samples.

Results

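The genes described here encode the proteins of the cytoplasmic ribosome, read in whole testes of XEO,Sry and XE,Z2O,Sry male mice at 17.5 days post partum (dpp). They were taken by symbol from the gene-level array table, as every name that begins with Rpl or Rps followed by a number, by p and a number, or by a final a, with the S6 kinase genes left out. Of 18097 genes in the table, 63 met this rule. A gene counted as expressed when its detection p-value, a test of its signal against negative control beads, fell below 0.01 on 4 or more of the 8 arrays. By this measure 53 of the 63 were expressed, among 8324 expressed genes in all, and 50 of them were detected on all 8 arrays.

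XEO,Sry males are XO mice on the MF1 background that carry transgenes for Sry, which makes them male, and for Eif2s3y, which spermatogonia need to proliferate, and they have no Zfy gene. XE,Z2O,Sry males have the same karyotype, background, age and transgenes, with a Zfy2 transgene in addition, so that neither genotype has a Y chromosome. The study compared the genotypes to find which testis transcripts depend on Zfy. The labels name 4 animals per genotype, and RNA from the testis of each was hybridized to 1 single-colour Illumina BeadChip, a bead array for the whole mouse genome. Values are log2 signals after quantile normalization by the authors, and differences are XEO,Sry minus XE,Z2O,Sry throughout.

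The ribosome has a large subunit, which forms peptide bonds, and a small subunit, which reads the mRNA. Their proteins are made in matched amounts, the Rpl genes for the large and the Rps genes for the small subunit, and their mRNAs belong to the most abundant of any cell. The mRNAs typically begin with a C and a run of pyrimidines, the TOP motif, through which the mTOR pathway controls their translation. Several of these genes lie on the X chromosome, which spermatocytes silence at pachytene, and some of them have autosomal copies that are used in the male germ line.

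Promoter sequences of 51 of the 63 genes were found in RefSeq on GRCm38.p6. The letters CCGGAAG, or CTTCCGG on the other strand, the core of the motif bound by ETS family factors, lay in 21 of these 51 windows (41.2%) of 300 bases, from 250 before to 50 after the start of the gene, against 9.12% of all 27025 windows of the same length. A start at C followed by 4 of C or T, as in a TOP mRNA, was found in 9 of 51 (17.6%), against 2.49% of all. This was read at the exact annotated start only, so a run that began some bases away from it was not counted. The stretches below run 5′ to 3′ on the strand of the gene, from 120 bases before the start to 30 after it. Capitals mark CCGGAAG or CTTCCGG and, where the gene starts with such a pyrimidine run, the run itself. Rps6 and Rps10 are shown as members with both features, Rps2 as the member with the largest difference between the genotypes, Rps4x and Rpl39 as X-linked members, and Rpl39l as the member with the lowest difference.
Rps6: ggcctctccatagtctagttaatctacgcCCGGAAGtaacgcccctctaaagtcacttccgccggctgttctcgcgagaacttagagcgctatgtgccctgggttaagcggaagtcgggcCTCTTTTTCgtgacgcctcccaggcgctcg
Rps10: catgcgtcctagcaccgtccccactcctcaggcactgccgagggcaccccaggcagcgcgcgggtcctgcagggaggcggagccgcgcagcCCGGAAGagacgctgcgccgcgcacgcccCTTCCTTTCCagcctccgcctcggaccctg
Rps2: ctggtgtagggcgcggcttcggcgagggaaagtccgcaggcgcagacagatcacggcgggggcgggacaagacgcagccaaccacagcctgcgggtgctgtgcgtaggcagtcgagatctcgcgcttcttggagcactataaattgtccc
Rps4x: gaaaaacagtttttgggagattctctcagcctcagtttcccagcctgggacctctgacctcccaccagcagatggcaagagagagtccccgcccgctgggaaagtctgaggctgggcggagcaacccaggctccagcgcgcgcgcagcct
Rpl39: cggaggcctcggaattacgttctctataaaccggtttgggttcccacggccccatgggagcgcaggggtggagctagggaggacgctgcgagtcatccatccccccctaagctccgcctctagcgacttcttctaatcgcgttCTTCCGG
Rpl39l: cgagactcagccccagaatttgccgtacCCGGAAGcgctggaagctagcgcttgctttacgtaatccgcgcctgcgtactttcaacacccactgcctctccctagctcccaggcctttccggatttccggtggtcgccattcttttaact
Rps6 lies on the minus strand at chr4:86857338-86857487, Rps10 on the minus strand at chr17:27635215-27635364 and Rps2 on the plus strand at chr17:24719943-24720092. Rps4x lies on the minus strand at chrX:102189362-102189511, Rpl39 on the minus strand at chrX:37085193-37085342 and Rpl39l on the plus strand at chr16:10170108-10170257. In Rps2 the motif lay in the window of 300 bases but outside the stretch shown, and in Rps4x it was not among the letters of the window. Among expressed members, the median difference between the genotypes was 0.25 on the log2 scale in the 17 with the motif and 0.22 in the 26 without it.

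Neither Zfy2 nor Sry was detected on any array, so that the Zfy2 signal could not check the labels. Zfy2 read 6.05 to 6.20 in XEO,Sry and 6.15 to 6.19 in XE,Z2O,Sry. Zfy1, a close relative of Zfy2 that neither genotype carries by its labels, was also not detected on any array, but its signal was 6.13 to 6.28 in XEO,Sry, below the 6.50 to 6.77 of XE,Z2O,Sry. The labels' identifiers of the animals begin with 1 number in all 4 XEO,Sry animals and with others in XE,Z2O,Sry. If these mark cohorts, cohort and genotype cannot be told apart. Between 8132 and 8434 genes were detected per array in XEO,Sry, and between 8063 and 8282 in XE,Z2O,Sry. Since each animal gave 1 array, animal and array error are not separate, and their number limits the precision.

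Most ribosomal protein transcripts had a slightly higher mean signal in XEO,Sry testes, and no single one passed the test. Of the 53 expressed members, 48 (90.6%) had a higher mean in XEO,Sry and 5 a lower one, where 62.0% of all expressed genes had a higher mean and 38.0% a lower one. Their median difference was 0.22, beside 0.073 over all 8324 genes. None passed limma's test after Benjamini-Hochberg adjustment over all genes, with the lowest adjusted p at 0.107, and 0.0601% of all genes passed, 0.024% higher and 0.036% lower. Before adjustment, p was under 0.05 in 14 members that were higher (12.9% of all genes) and 1 that was lower (12.0% of all genes). The 4 XEO,Sry animals lay above the 4 XE,Z2O,Sry animals in 9 members (6.34% of all genes) and below them in 0 (4.58% of all genes). More than 1.5-fold differences were seen in 1 member that was higher, Rps2 (0.973% of all genes), and 1 that was lower, Rpl39l (6.63% of all genes).

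In 44 of the 53 members the difference was within 0.2 of the median, and their SD over members was 0.234, or 0.139 without Rps2 and Rpl39l. The quartiles were 0.073 and 0.30 in the members, and no closer together than those of ribosome biogenesis factors (0.010 and 0.20) and translation factor genes (-0.011 and 0.20). Over all genes they were -0.11 and 0.22. Without Rps2 the median was 0.21.

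**Figure D1:**
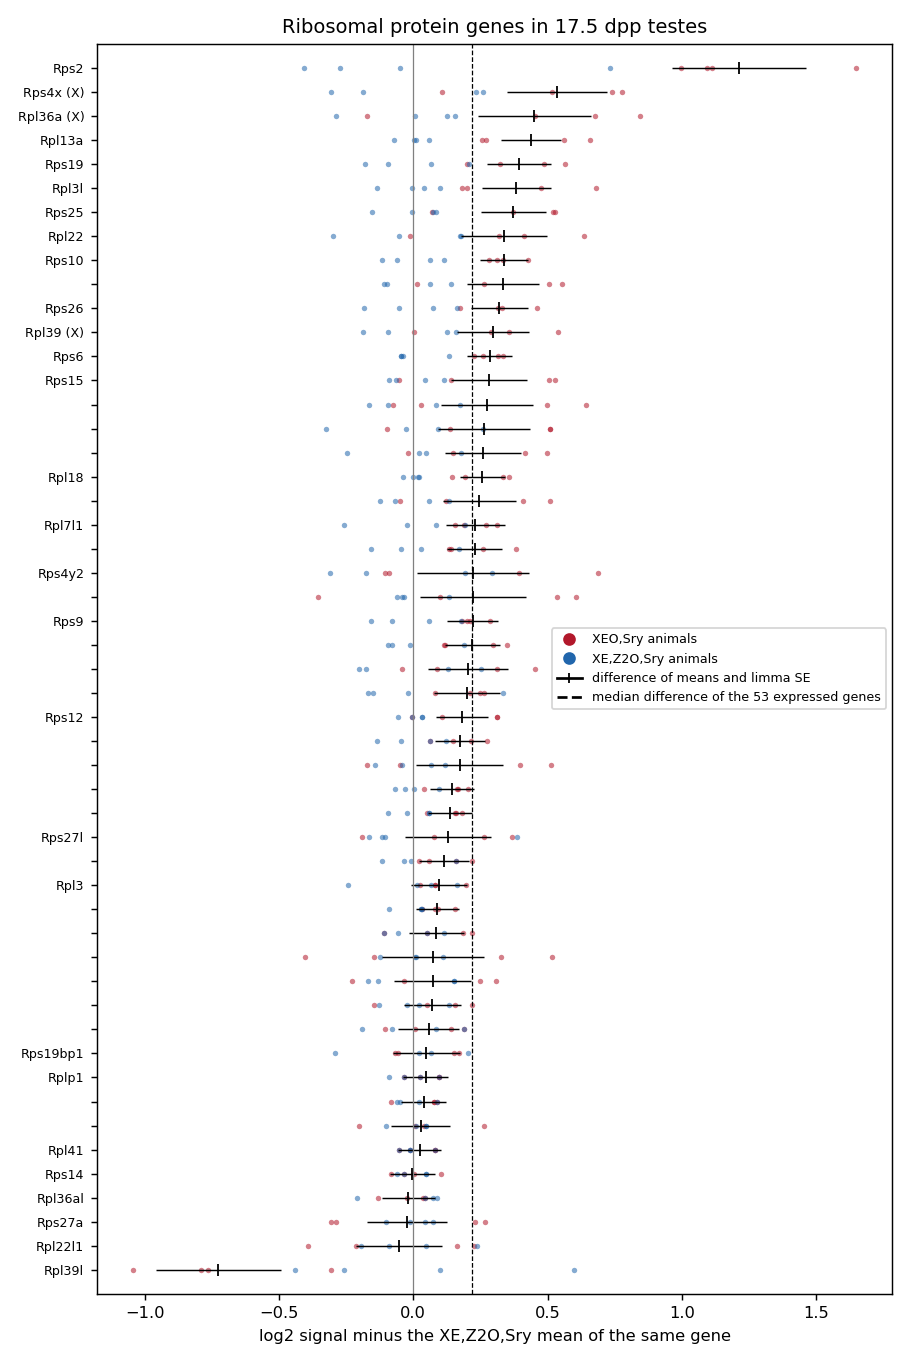
Log2 signal of 51 of the 53 expressed ribosomal protein genes in each animal, minus the XE,Z2O,Sry mean of the same gene, for the 4 XEO,Sry animals (red) and the 4 XE,Z2O,Sry animals (blue); black marks are differences of means with limma's standard error, and genes named in the text are labelled, with (X) for X-linked ones. The differences run from -0.72 for Rpl39l to 1.21 for Rps2, and most lie near the dashed line at the median of 0.22.

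**Figure D2:**
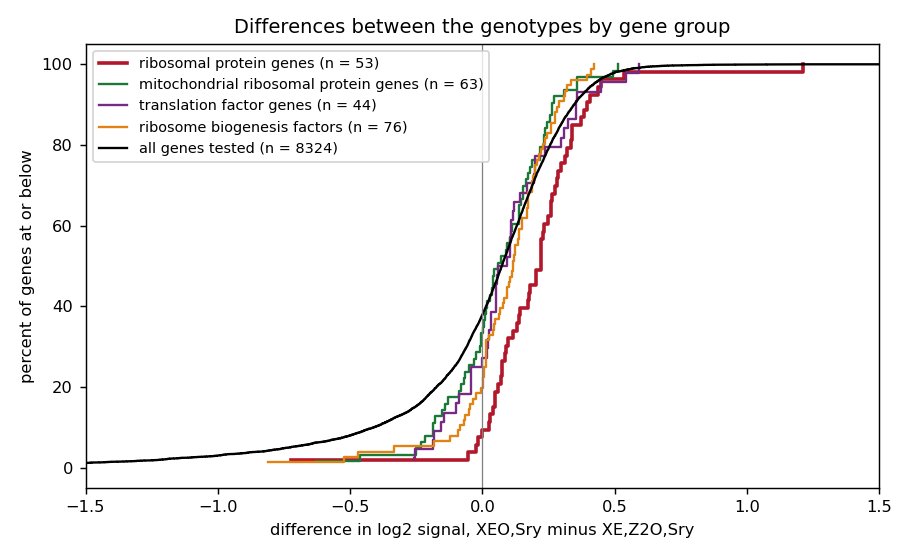
Cumulative percent of genes against the difference in log2 signal between XEO,Sry and XE,Z2O,Sry, for 53 ribosomal protein genes, 63 mitochondrial ribosomal protein genes, 44 translation factor genes, 76 ribosome biogenesis factors and all 8324 expressed genes; the axis ends at -1.5 and 1.5. The curve of the ribosomal protein genes runs to the right of the other 4 over most of its length, with a median of 0.22.

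The mean over the 53 members was 12.44, 12.50, 12.27 and 12.22 in replicates 1 to 4 of XEO,Sry, against 12.22, 12.14, 12.10 and 12.16 in replicates 1 to 4 of XE,Z2O,Sry. The genotypes overlapped by a small margin, in replicate 4 of XEO,Sry and replicate 1 of XE,Z2O,Sry. The means were 12.36 ± 0.137 in XEO,Sry and 12.16 ± 0.0510 in XE,Z2O,Sry (SD, n = 4 each), while the median over all expressed genes was 8.35 to 8.37 on each array. The XEO,Sry animals fell into an upper and a lower pair. Replicates 1 and 2 both stood above replicates 3 and 4 in 37 of the 53 members, as they did in 25.5% of all expressed genes, and replicate 2 was the highest of the 4 in 29 members. In the labels, the identifiers of replicates 3 and 4 share a number that replicates 1 and 2 do not have. What it marks is not given in the sources used here, and its part in the result was not tested. Among XE,Z2O,Sry animals, replicate 1 was the highest in 24 members and replicate 2 the lowest in 24.

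In RNA from whole testes, fewer cells of a type and less RNA per cell cannot be told apart. Markers of several testis cell types were therefore read on the same arrays, and none passed the adjusted threshold. Of 17 autosomal markers of pachytene spermatocytes measured, 13 were expressed and 12 of these had a lower mean in XEO,Sry, 11 of them at an unadjusted p under 0.05 (lowest adjusted p = 0.0798 from limma). Among all expressed genes, 38.0% had a lower mean and 12.0% were lower at that unadjusted p. Sycp3, Mael and Tdrd1 were not detected on any array. The mean over the 13 was 10.60, 9.23, 9.48 and 10.94 in replicates 1 to 4 of XEO,Sry and 11.57, 11.98, 11.62 and 10.86 in replicates 1 to 4 of XE,Z2O,Sry, so that replicate 4 of XEO,Sry lay above replicate 4 of XE,Z2O,Sry. The 8 markers of spermatogonia expressed had array means of 8.26 to 8.59 in XEO,Sry and 8.04 to 8.62 in XE,Z2O,Sry, and the 7 of Sertoli cells 10.42 to 10.99 in XEO,Sry and 9.91 to 10.83 in XE,Z2O,Sry. Markers of Leydig cells (4 expressed) read 8.66 to 9.22 in XEO,Sry and 8.61 to 9.21 in XE,Z2O,Sry, those of peritubular cells (3) 8.78 to 9.67 in XEO,Sry and 8.46 to 9.40 in XE,Z2O,Sry, those of macrophages (3) 8.06 to 8.64 in XEO,Sry and 7.79 to 8.48 in XE,Z2O,Sry, and those of erythroid cells (3) 9.01 to 10.10 in XEO,Sry and 9.07 to 10.12 in XE,Z2O,Sry. A higher mean in XEO,Sry was seen in 7 of 8 spermatogonial markers (median difference 0.22) and 7 of 7 Sertoli markers (0.23). The same held for 3 of 3 peritubular (0.29), 3 of 3 macrophage (0.31), 2 of 4 Leydig (-0.036) and 0 of 3 erythroid markers (-0.097). Of all expressed genes, 62.0% had a higher mean. The part of these cell types in the difference of the ribosomal protein genes was not tested. Within XEO,Sry, the upper pair of animals by ribosomal protein signal held both the lowest pachytene mean, in replicate 2, and the second highest, in replicate 1.

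The members were then taken by subunit. Of the 24 small subunit genes expressed, 22 had a higher mean in XEO,Sry, 11 at an unadjusted p under 0.05 (45.8%, beside 12.9% of all genes), with a median difference of 0.22. Of the 28 large subunit genes expressed, 25 had a higher mean, with a median of 0.19. At that p, 3 of the 28 were higher (10.7%), a share near the 12.9% of all genes, and 1 was lower. The small subunit genes averaged 12.95 ± 0.128 in XEO,Sry and 12.68 ± 0.0622 in XE,Z2O,Sry, and the large subunit genes 12.00 ± 0.152 in XEO,Sry and 11.85 ± 0.0572 in XE,Z2O,Sry (SD, n = 4 each). On single arrays the small subunit mean was 12.80 to 13.09 in XEO,Sry, above the 12.62 to 12.74 of XE,Z2O,Sry, while the large subunit means overlapped, at 11.86 to 12.15 in XEO,Sry and 11.80 to 11.93 in XE,Z2O,Sry. The small subunit mean includes Rps2, whose difference of 1.21 was the largest of all members, and it was not computed without Rps2. Whether the subunits differed from each other was not tested.

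By signal, the smallest median was that of the brightest members. In the brightest 17 members the median difference was 0.096, against 0.26 in the 18 of middle signal and 0.22 in the 18 dimmest. Rpl41, a very short basic peptide of the large subunit, had the highest signal and stood at the top of the scale, at 15.48, on 3 arrays. It differed by 0.023, Rplp1 of the stalk that recruits elongation factors by 0.047 and Rps12 of the small subunit by 0.18, with adjusted p-values of 0.867, 0.736 and 0.274 from limma. Of the members with a mean log2 signal of at least 12, 35 in number, the median difference was 0.20, beside 0.031 for the 271 other genes as bright, of which 152 had a higher mean in XEO,Sry.

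Rps2, a protein of the small subunit at the mRNA entry channel, stood apart from the complex. Its log2 signal was 13.53, 13.65, 14.18 and 13.63 in replicates 1 to 4 of XEO,Sry, against 12.13, 13.26, 12.26 and 12.48 in replicates 1 to 4 of XE,Z2O,Sry. All XEO,Sry animals lay above all XE,Z2O,Sry animals, with replicate 3 the highest of XEO,Sry and replicate 2 of XE,Z2O,Sry well above its group. The difference was 1.21, or 2.32-fold (standard error 0.249), and did not pass (adjusted p = 0.107 from limma). It passed without replicate 4 of XEO,Sry (1.25, adjusted p = 0.0488), where 4.76% of all genes passed. It also passed without replicate 4 of XE,Z2O,Sry (1.20, adjusted p = 0.0477), where 6.23% of all genes passed. Without replicate 2 of XE,Z2O,Sry it passed (1.46, adjusted p = 0.0467) where 0.0601% of all genes did. Its unadjusted p from limma was 0.00206, 0.00245 and 2.39e-05 in these settings, against 0.000842 with all 8 animals. With 1 of the other animals left out, its adjusted p was up to 0.292. Ribosomal protein genes have many processed pseudogenes in the mouse genome, and a probe can also read a near-identical copy, for Rps2 as for other members.

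The genes beside Rps2 on chromosome 17, chosen after its value was seen, had differences of both signs. Of the 10 nearest expressed genes, 5 on each side, the differences ran from -1.04 to 0.38, with a median of 0.067. The value of 0.38 was that of Rpl3l, itself a ribosomal protein gene, described further on. Ndufb10, which encodes a subunit of mitochondrial complex I and is the nearest on one side, read 9.58, 9.33, 8.56 and 9.40 in XEO,Sry and 10.09, 9.29, 10.10 and 9.80 in XE,Z2O,Sry (difference -0.60, adjusted p = 0.179 from limma). Its lowest animal in each genotype, replicate 3 of XEO,Sry and replicate 2 of XE,Z2O,Sry, was the one with the highest Rps2. Gfer, a sulfhydryl oxidase of the mitochondrial intermembrane space, was likewise lowest in these animals, at 10.68, 10.49, 9.64 and 10.77 in XEO,Sry and 11.32, 9.83, 11.34 and 11.13 in XE,Z2O,Sry (difference -0.51, adjusted p = 0.400). Rpl3l and Zfp598, a ubiquitin ligase that acts on collided ribosomes, were lowest in the same animals too, with differences of 0.38 and 0.12 (adjusted p = 0.133 and 0.491), while Hagh, a glyoxalase, was highest in replicate 2 of XE,Z2O,Sry, at 10.72 (difference -0.41, adjusted p = 0.282). Noxo1, an organizer of an NADPH oxidase, was also lowest in replicate 3 of XEO,Sry, at 7.61, 7.11, 6.81 and 7.95, and read 8.70, 8.20, 8.69 and 8.05 in XE,Z2O,Sry, where replicate 4 was the lowest. It differed by -1.04 (adjusted p = 0.113), with all XEO,Sry animals below all XE,Z2O,Sry animals. Tbl3, a factor of small subunit assembly and the nearest gene on the other side, read 7.66, 7.50, 7.95 and 7.97 in XEO,Sry and 7.25, 7.90, 7.46 and 7.36 in XE,Z2O,Sry (difference 0.27, adjusted p = 0.320). Replicate 2 of XE,Z2O,Sry was thus high within its genotype for Tbl3 as for Rps2.

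**Figure D3:**
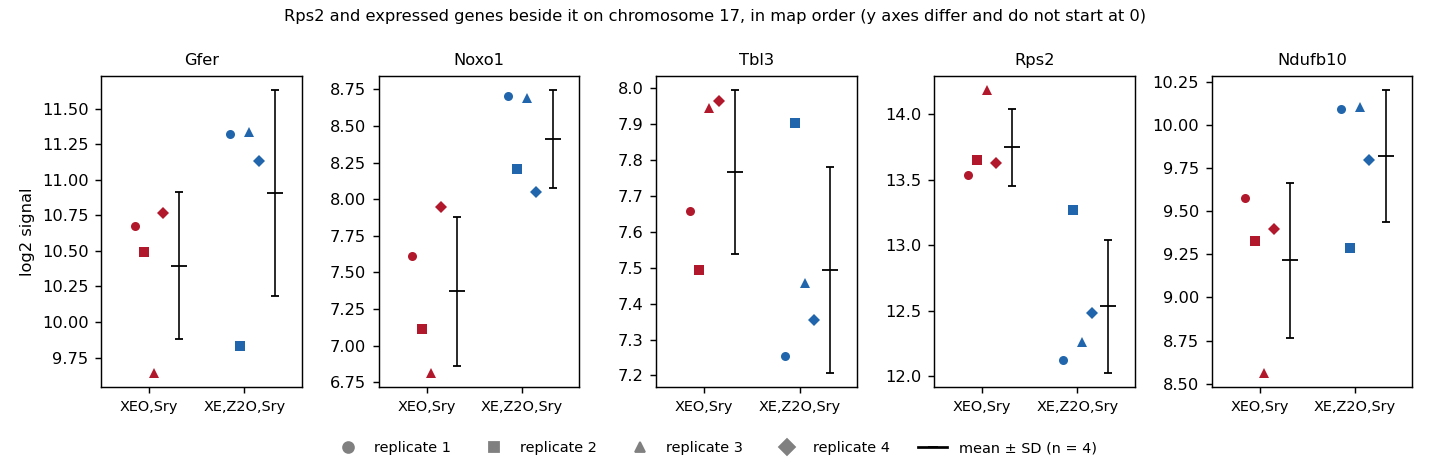
Log2 signal of Rps2 and of expressed genes on both sides of it on chromosome 17, in each of the 4 XEO,Sry animals (red, left in each panel) and the 4 XE,Z2O,Sry animals (blue), with symbols for replicates and mean ± SD (n = 4); the axes differ between panels and do not start at 0. Triangles in XEO,Sry and squares in XE,Z2O,Sry are highest for Rps2 and lowest for Ndufb10 and Gfer.

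The 3 X-linked members expressed had differences of 0.54, 0.45 and 0.30, with a median of 0.45 beside 0.20 for the 50 autosomal members. Over all expressed genes the median was 0.36 for the 285 X-linked and 0.064 for the 7651 autosomal ones. Rps4x, a protein of the small subunit that in humans has a working copy on the Y chromosome, read 13.07, 13.11, 12.85 and 12.44 in XEO,Sry and 12.57, 12.03, 12.15 and 12.59 in XE,Z2O,Sry. The difference was 0.54 (standard error 0.185, adjusted p = 0.141 from limma), and replicate 4 of XEO,Sry lay within the range of XE,Z2O,Sry. Rpl36a, a protein of the large subunit, read 12.37, 12.53, 12.14 and 11.52 in XEO,Sry and 11.85, 11.70, 11.40 and 11.82 in XE,Z2O,Sry. The same animal was low, and the difference of 0.45 (standard error 0.210, adjusted p = 0.220) was 0.66 without it (adjusted p = 0.0483). In that setting 4.76% of all genes passed. Rpl39, a small protein at the peptide exit tunnel of the large subunit, read 13.64, 13.82, 13.57 and 13.28 in XEO,Sry and 13.44, 13.09, 13.18 and 13.40 in XE,Z2O,Sry, a difference of 0.30 (standard error 0.134, adjusted p = 0.209). In each of the 3 genes replicate 4 was the lowest of XEO,Sry and overlapped with XE,Z2O,Sry.

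Rpl39l, the autosomal copy of Rpl39 that is expressed in male germ cells, ran against the complex. It read 7.76, 7.28, 7.02 and 7.30 in XEO,Sry and 8.17, 8.66, 7.81 and 7.63 in XE,Z2O,Sry. Only replicate 1 of XEO,Sry reached the range of XE,Z2O,Sry. The difference was -0.72 (standard error 0.234, adjusted p = 0.130 from limma) and was the lowest of the 53 members. Within each animal, Rpl39l relative to Rpl39 was lower in XEO,Sry by 1.02 on the log2 scale, with an SD of 0.358 in XEO,Sry and of 0.566 in XE,Z2O,Sry. This was lower in 4 of 4 XEO,Sry animals than in any XE,Z2O,Sry animal (exact permutation over animals, two-sided p = 0.0286, the smallest that 70 assignments allow, and 0.143 when adjusted over the 5 pairs of paralogue and parent tested). Without any 1 of the XEO,Sry animals or replicate 2 of XE,Z2O,Sry the exact p was 0.0571.

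None of the 5 pairs passed after adjustment, and the other 4 did not pass before it either. The genotypes differed in paralogue relative to parent by -0.47 in Rpl36al and the X-linked Rpl36a (exact permutation p = 0.114), by -0.39 in Rpl22l1 and Rpl22 (exact permutation p = 0.0571), by -0.31 in Rps4y2 and the X-linked Rps4x (exact permutation p = 0.486) and by 0.29 in Rpl3l and Rpl3 (exact permutation p = 0.114). Adjusted over the 5 pairs these were 0.143, 0.143, 0.486 and 0.143. With 1 animal left out, the unadjusted exact permutation p was 0.0286 to 0.143 for Rpl22l1 and 0.0286 to 0.257 for Rpl3l. The value of 0.0286 was reached by Rpl22l1 without replicate 4 of XE,Z2O,Sry (-0.52) and by Rpl3l without replicate 3 of XEO,Sry (0.39). Rps4y2 is an older symbol for Rps4l, an autosomal gene on chromosome 6. It read 10.49, 10.48, 10.98 and 11.27 in XEO,Sry and 10.28, 10.41, 10.88 and 10.78 in XE,Z2O,Sry, and in both genotypes replicates 3 and 4 stood above replicates 1 and 2. The difference was 0.22 (adjusted p = 0.517 from limma).

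Rpl3l, a form of Rpl3 known from heart and skeletal muscle, read 8.01, 8.21, 7.71 and 7.73 in XEO,Sry and 7.63, 7.40, 7.57 and 7.53 in XE,Z2O,Sry. All XEO,Sry animals lay above all XE,Z2O,Sry animals, and the difference was 0.38 (standard error 0.127, adjusted p = 0.133 from limma), while Rpl3 itself differed by 0.096 (adjusted p = 0.576). The Rpl7-related gene Rpl7l1 differed by 0.23 (adjusted p = 0.228) and Rps27l, a p53 target related to Rps27, by 0.13 (adjusted p = 0.627).

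**Figure D4:**
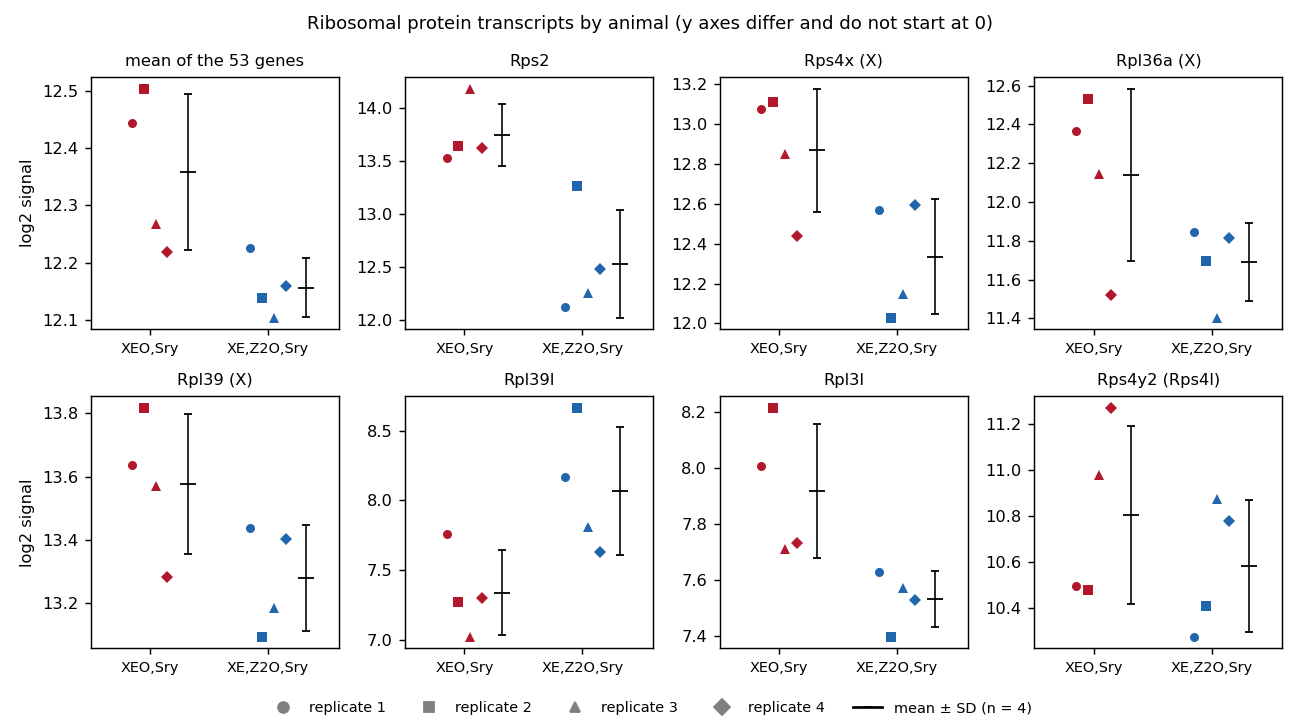
Log2 signal in each of the 4 XEO,Sry animals (red, left in each panel) and the 4 XE,Z2O,Sry animals (blue) for the mean of the 53 expressed ribosomal protein genes and for Rps2, the X-linked Rps4x, Rpl36a and Rpl39, and the paralogues Rpl39l, Rpl3l and Rps4y2, with symbols for replicates and mean ± SD (n = 4); the axes differ between panels and do not start at 0. The genotypes are apart for Rps2 and Rpl3l and overlap in the other panels, and Rpl39l is the one with the lower mean in XEO,Sry.

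Among the small subunit genes, Rps6, the substrate of S6 kinase, read 13.09, 13.07, 12.98 and 13.02 in XEO,Sry and 12.72, 12.71, 12.89 and 12.71 in XE,Z2O,Sry. The genotypes did not overlap, replicate 3 of XE,Z2O,Sry was the nearest to XEO,Sry, and the difference was 0.28 (standard error 0.0835, adjusted p = 0.121 from limma). Rps10, which lies where the mRNA enters, read 12.70, 12.84, 12.75 and 12.73 in XEO,Sry and 12.48, 12.30, 12.36 and 12.53 in XE,Z2O,Sry. These did not overlap either, with a difference of 0.34 (standard error 0.0883, adjusted p = 0.114). Rps19, the gene most often mutated in the human anaemia of Diamond and Blackfan, read 13.14, 13.22, 12.85 and 12.97 in XEO,Sry and 12.71, 12.47, 12.56 and 12.86 in XE,Z2O,Sry. It differed by 0.39 (adjusted p = 0.126) with an overlap of replicate 3 of XEO,Sry and replicate 4 of XE,Z2O,Sry. Rps25, needed by several viral internal ribosome entry sites, differed by 0.37 (adjusted p = 0.131). Rps25 passed without replicate 4 of XEO,Sry (0.47, adjusted p = 0.0472), where 4.76% of all genes passed.

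On the large subunit, Rpl13a, known for its part in the silencing of inflammatory mRNAs, read 9.89, 9.79, 9.49 and 9.50 in XEO,Sry and 9.29, 9.24, 9.16 and 9.24 in XE,Z2O,Sry. The genotypes did not overlap, and the upper pair of XEO,Sry animals was again replicates 1 and 2. The difference was 0.44 (standard error 0.112, adjusted p = 0.114 from limma). Besides Rps2, Rpl3l, Rps6 and Rps10, members without overlap included Rpl18 at 0.26, Rps26 at 0.32 and Rps9 at 0.22, named after their values were seen. The offset from the median of the members on the same array varied least in Rps12, Rps6 and Rps15, with SDs of 0.0846, 0.0970 and 0.102 over the 8 arrays, and most in Rps2 and Rpl39l, with 0.646 and 0.643. Rps15, which lies near the decoding centre, differed by 0.28 (adjusted p = 0.248).

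At the other end of the list, 4 members besides Rpl39l had a slightly lower mean in XEO,Sry, and none of the 4 passed. Their direction was not stable, since without replicate 4 of XEO,Sry all 4 had a higher mean there, as had 52 of the 53 members. With any 1 animal left out, 46 to 52 of the 53 had a higher mean in XEO,Sry. Rpl22l1 differed by -0.054 (adjusted p = 0.842 from limma), Rps27a, made as a fusion to ubiquitin, by -0.024 (adjusted p = 0.926), Rpl36al by -0.019 (adjusted p = 0.912) and Rps14, whose loss is tied to a human anaemia, by -0.0031 (adjusted p = 0.982). Rps14 read 14.34, 14.37, 14.47 and 14.29 in XEO,Sry and 14.34, 14.31, 14.42 and 14.42 in XE,Z2O,Sry, with full overlap. Rps19bp1, which meets the symbol rule but encodes a protein that binds Rps19 and is no subunit, differed by 0.049 (adjusted p = 0.812).

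The 10 members that did not pass the detection filter were Rpl4, Rpl6, Rpl14, Rpl17, Rpl21, Rpl37, Rplp2, Rps15a, Rps23 and Rpsa, of which 8 were detected on 0 arrays. For a pair of them detection did not follow the signal. Rpl37 had means of 12.92 in XEO,Sry and 12.93 in XE,Z2O,Sry and Rpl4 of 8.65 in XEO,Sry and 8.55 in XE,Z2O,Sry, yet neither reached a detection p under 0.01 on any array. The other 8 had mean signals near the low end of the scale, with group means of 6.15 for Rpl6 in XEO,Sry at the lowest and 6.75 for Rps15a in XEO,Sry at the highest. Rps15a was detected on 3 arrays of XEO,Sry and on 0 of XE,Z2O,Sry, and Rpl21 on 2 of XEO,Sry and 1 of XE,Z2O,Sry.

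Other gene lists tied to the ribosome had medians of 0.050 to 0.11, and none of their members passed over all genes either. Among all expressed genes, 62.0% had a higher mean in XEO,Sry. Of 76 expressed ribosome biogenesis factors, 61 had a higher mean in XEO,Sry, with a median of 0.11, and at an unadjusted p under 0.05 there were 6 that were higher (7.89%) and 4 that were lower (5.26%), below the shares of all genes, 12.9% and 12.0%. Their largest differences were those of Sbds, which releases Eif6 from the new large subunit, at -0.81 (adjusted p = 0.108 from limma), and the exosome subunit Exosc5 at -0.52 (adjusted p = 0.123). Sbds read 10.61, 10.24, 10.27 and 10.63 in XEO,Sry and 11.12, 11.60, 11.44 and 10.83 in XE,Z2O,Sry, with no overlap.

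Of 44 expressed translation factor genes, 32 had a higher mean, with a median of 0.076, and 8 were higher (18.2%) and 1 lower (2.27%) by the unadjusted p. Over all expressed genes, 62.0% had a higher mean, and 12.9% were higher and 12.0% lower by the unadjusted p. Eif4ebp1, the repressor of cap-dependent initiation that mTOR inactivates, differed by 0.59 (adjusted p = 0.126), and Eif2s3y, carried as a transgene in both genotypes, by 0.54 (adjusted p = 0.190). Of 17 expressed genes of other TOP mRNAs, 9 had a higher mean, with a median of 0.050, and 3 were higher and 3 lower (17.6% each) by the unadjusted p. The largest differences were 0.45 for the X-linked Eif2s3x (adjusted p = 0.121) and -0.39 for the poly(A)-binding protein gene Pabpc1 (adjusted p = 0.122). The proteins of the mitochondrial ribosome, which makes the few proteins encoded in mitochondria, had a median of 0.059 over 63 expressed genes, of which 42 had a higher mean, with 11 higher (17.5%) and 2 lower (3.17%) by the unadjusted p. Mrpl39 differed by -0.63 (adjusted p = 0.117) and Mrpl23 by 0.51 (adjusted p = 0.121). Gnb2l1, an older symbol for Rack1, a small subunit protein outside the symbol rule, differed by -0.071 (adjusted p = 0.731). Whether these lists differed from the ribosomal protein genes was not tested.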

How the data were processed

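Testis RNA of 8 animals, 4 per genotype by the labels, was read on 1 Illumina BeadChip each. The Methods give 3 per genotype, and all 8 arrays were used. The log2 values used here, 1 per gene and array from 5.72 to 15.48, were deposited by the authors after quantile normalization, a step that gives all arrays the same distribution. GenomeStudio 2011.1 is named in the submitters' processing notes and BeadStudio in the Methods. The authors also deposited a detection p-value for each gene and array, linear intensities that they call non-normalized but whose arrays already share nearly 1 distribution, and a series table that repeats the log2 values.

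Genes with a detection p under 0.01 on at least 4 arrays went into a linear model of genotype alone with moderated variance (limma 3.58.1 under R 4.3.3, functions lmFit and eBayes). The p-values were two-sided and adjusted after Benjamini-Hochberg over 8324 genes, with a threshold of 0.05, and the fit was tested on simulated data. Lists were described by counts and medians, with no test. Each paralogue minus its parent was compared between genotypes by exact permutation over animals, a two-sided test. Symbols were matched to GRCm38.p6 for 14094 genes, by synonym for 3068, and 935 had no match. Of the members, 61 matched by symbol and 2 by synonym. Tables were made with Python 3.11.15 (pandas 2.3.3, numpy 2.4.6) and plots with matplotlib 3.10.9.

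The members, lists and tests were chosen with earlier results of these data known. Members are named if they had the 8 largest positive or 8 largest negative differences among expressed members, if they are X-linked, paralogues with their parents, the 3 brightest, no subunit, or the 3 with the steadiest offset, as are the 2 largest differences of each other list. Rps9, Rps10, Rps26, Rpl18 and the neighbours of Rps2 were added after their values were seen. The values of 2 members are not reported here by name, nor plotted gene by gene. Alternatives were other filters, normexp (offset 50) or no background correction before quantile normalization, array medians subtracted, no variance moderation, a replicate block, and each animal left out. A filter on mean signal, the median without Rps2, and the settings of pairs and other lists were chosen after seeing the data.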

Additional observations from a re-analysis of the deposited data

Results flagged for a closer look

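Of 104 groups of 4 animals examined (each genotype, for the genes named, their list means and the paralogue ratios), 4 held an animal far from the others. Chance gives about 1 in 20, so this count was no higher than chance gives. All 4 groups were in XE,Z2O,Sry. Rpl36al stood at 12.90 in replicate 4, below 13.15 to 13.20 in the other 3. Rps27l stood at 14.13 in replicate 1, above 13.58 to 13.64 in the other 3. Rps6 stood at 12.89 in replicate 3, above 12.71 to 12.72 in the other 3, and this animal was the nearest to XEO,Sry in a gene whose genotypes did not overlap. Gfer, a neighbour of Rps2, stood at 9.83 in replicate 2, below 11.13 to 11.34 in the other 3, and the same animal had the highest Rps2 of its genotype.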

How the results depend on the processing

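The median difference of the ribosomal protein genes stayed above 0 in every setting. Over the expressed members it was 0.15 to 0.24 with 1 animal left out and 0.22 with array medians subtracted. With no filter on dim genes it was 0.17, over all 63 members and not the 53 expressed. Over the expressed members it was 0.19 after normexp background correction and quantile normalization, and 0.19 after quantile normalization without background correction. It was 0.20 without the X-linked members and 0.21 without Rps2. The intensities normalized again already shared nearly 1 distribution, and the array medians subtracted were 8.35 to 8.37. These settings therefore cannot show how far the median depends on the authors' normalization. Members past the adjusted threshold numbered 0 in all settings with 8 animals, and 0 to 3 of the 53 with 1 animal left out. Without replicate 4 of XEO,Sry 3 passed (Rps2, Rpl36a and Rps25), beside 4.76% of all genes. Without replicate 4 of XE,Z2O,Sry 1 passed (Rps2), beside 6.23% of all genes, and without replicate 2 of XE,Z2O,Sry 1 (Rps2), beside 0.0601%. With 1 animal left out, 0 to 2 biogenesis factors passed, 0 to 1 gene of other TOP mRNAs, 0 to 2 mitochondrial ribosomal protein genes and 0 to 2 translation factor genes. Those that passed did so only without replicate 4 of XEO,Sry or replicate 4 of XE,Z2O,Sry.

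Over all genes, 5 passed, 2 higher and 3 lower. With detection on all 8 arrays 1 passed, 0 higher and 1 lower, with a mean log2 signal of at least 8, 3 passed, 1 of them higher, and without variance moderation 1 passed, 1 higher and 0 lower. With 1 animal left out the count was 3 to 519, 1 to 140 higher and 2 to 399 lower, and the high counts were those without replicate 4 of XEO,Sry (396) and without replicate 4 of XE,Z2O,Sry (519). The cause was not tested. With a replicate block 1 gene passed over all genes, 1 higher and 0 lower, and the lowest adjusted p of a member was 0.231. The Methods call the XE,Z2O,Sry controls matched, without saying in what way. Whether the replicate numbers carry this matching is not given in the sources used here. Deviations from the genotype means correlated at 0.43, -0.23, 0.33 and -0.42 across genes for animals of the same number.

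Leaving out 1 animal, Rpl39l relative to Rpl39 differed by -1.21 to -0.76, Rpl22l1 relative to Rpl22 by -0.52 to -0.21, Rpl36al relative to Rpl36a by -0.64 to -0.34, Rps4y2 relative to Rps4x by -0.61 to -0.12 and Rpl3l relative to Rpl3 by 0.18 to 0.39. The sign turned in 5 of the members named, with ranges of -0.15 to 0.059 for Rpl22l1, -0.12 to 0.069 for Rps27a, -0.088 to 0.019 for Rpl36al, -0.039 to 0.024 for Rps14 and -0.048 to 0.12 for Rps19bp1. The number of arrays limits the precision.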
